A study of Sus scrofa with 6 samples.

Results

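The genes described here are PVALB, which encodes parvalbumin, and 8 genes of calcium release and storage in skeletal muscle, RYR1, CACNA1S, CACNB1, CASQ1, JPH1, TRDN, SRL and STAC3. They were taken from the deposited transcript table by gene name, and the values of the transcripts of each gene were summed in FPKM, a fragment count scaled to transcript length and library size. Of the 9 genes, 8 were found by name among 31908 annotated genes. RYR1 was found by position. PVALB was chosen by its measured FPKM in these same pigs, which was much lower in the pigs with high intramuscular fat (IMF). Its difference between the groups is therefore given as a description and was not tested. The other 8 genes were listed for their function, but with earlier results of these data known. RNA came from a back muscle, the longissimus dorsi (LD), of 6 castrated male Laiwu pigs, a local Chinese breed known for its fat-rich meat. LW63, LW70 and LW119 had extremely high IMF content (S-H) and LW82, LW88 and LW90 had extremely low IMF content (S-L), with 1 library depleted of ribosomal RNA per pig. No agent or gene alteration was part of the design, and the age of the pigs is not given in the sources used here. The pigs were picked for their IMF content and were not treated, so the groups differ in whatever goes with it, and fewer cells of a type and less RNA per cell cannot be told apart in such whole-muscle samples.

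In a skeletal muscle fibre, the action potential runs into the transverse tubules, where the L-type calcium channel acts as a voltage sensor and opens the ryanodine receptor of the sarcoplasmic reticulum by direct contact. Calcium that is bound to calsequestrin inside the reticulum then floods the cytosol and starts contraction. Parvalbumin is a small EF-hand protein of the cytosol that binds calcium after release and speeds relaxation, and it is best known from fast-twitch glycolytic fibres.

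The deposited table held 83119 transcripts, in FPKM, without read counts, so the number of reads behind a single value is not known and the only measure of precision is how far the 3 pigs of a group lie apart. Differences were tested with limma on log2(FPKM + 0.1) over the 16333 annotated genes with a mean of at least 0.1 FPKM. To pass, a gene needed p below 0.01 before adjustment and a log2 fold change of 1 or more in either direction, and 204 genes passed (1.25%), 152 higher and 52 lower in S-H. After Benjamini-Hochberg adjustment in limma the lowest p of any gene was 0.179, while 1217 genes (7.45%) had an unadjusted p below 0.05. Over the tested genes the log2 fold change had a median of 0.19, which depended on the scaling of the libraries, at 0.32 in TPM and 0.01 with median-ratio size factors. With these scalings 242 and 95 genes passed as higher and 33 and 90 as lower, and with quantile normalization 85 passed as higher and 105 as lower. The muscle identity of the samples was plain in every pig, since the 15 measured genes of all muscle fibres, led by DES, CKM, TCAP and ACTA1, summed to between 7438.5 and 12608 FPKM.

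PVALB (ENSSSCG00000000138, chromosome 5, 10955491 to 10973289 of Sscrofa11.1) had 6.93 FPKM in LW63, 0.268 FPKM in LW70 and 2.05 FPKM in LW119 of the S-H group. In the S-L group it had 15.8 FPKM in LW82, 12.9 FPKM in LW88 and 11.7 FPKM in LW90. Every S-H pig was below every S-L pig, and the values of the S-H pigs were spread far apart while those of the S-L pigs lay close together. The S-H mean of 3.08 ± 3.45 FPKM stood against an S-L mean of 13.5 ± 2.13 FPKM (SD, n = 3 each), a log2 fold change of -2.92 on the log2(FPKM + 0.1) scale. This is the value for which the gene was chosen, and it was the 4th lowest of the 16333 genes. LW70 set much of its size, since the log2 fold change was -1.79 without that pig and -3.92 without LW63.

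The same 6 values, by which PVALB was chosen, can also be given as ranks within each muscle, as a description. PVALB lay at percentile 69.8, 15.2 and 42.6 of the tested genes in LW63, LW70 and LW119, and at percentile 87.1, 83.6 and 84.4 in LW82, LW88 and LW90. The spread within a group comes from these values too and is likewise a description. Within S-H, the SD of log2(FPKM + 0.1) was 2.14, at percentile 99.6 of the tested genes, while within S-L it was 0.22, at percentile 23.0. The highest and the lowest of the 6 pigs differed 59.0-fold in PVALB, and between 1.49-fold and 3.68-fold in the 8 calcium-release genes.

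A single annotated transcript, PVALB-201, carried all of the PVALB value. At the same place the authors' assembly had 2 further transcripts with the gene name NCF4, the neighbouring gene of a subunit of the phagocyte NADPH oxidase. NCF4-OT1 (chromosome 5, 10953509 to 10973299) nearly matches the RefSeq span of PVALB, which runs from 10953559 to 10973300. It was listed at 1.25 FPKM in LW63, at 0 in LW70 and LW119, and at 0.829, 0.856 and 0.792 FPKM in LW82, LW88 and LW90. The only S-H pig above 0 was thus the one with the most PVALB. NCF4-OT2 (10953763 to 10973292) was listed at 0.191 FPKM in LW119, 0.0530 FPKM in LW90 and 0 in the other pigs. Adding both transcripts to PVALB, an alternative chosen after the data were seen, gave a log2 fold change of -2.89.

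**Figure D1:**
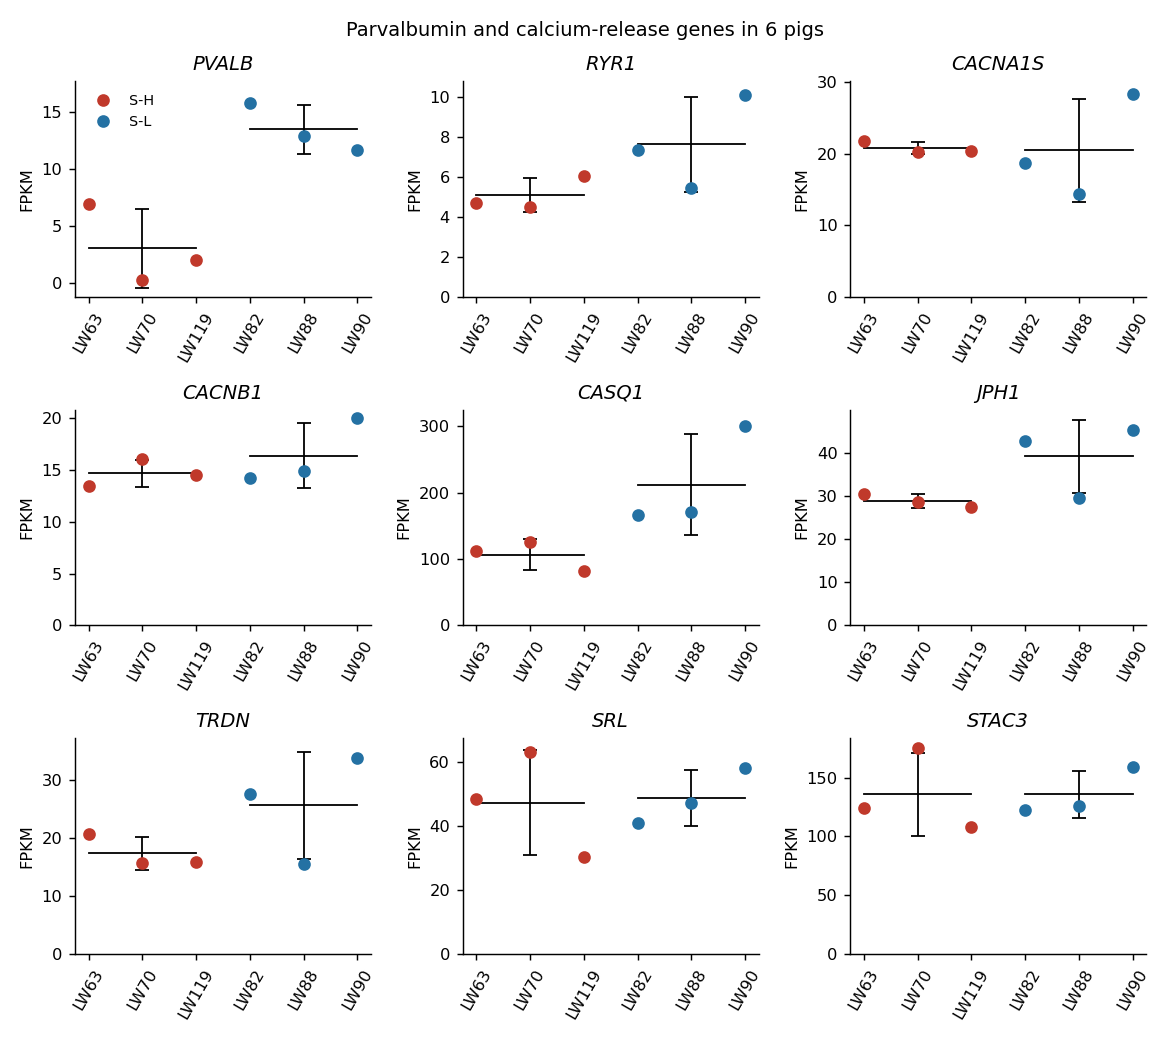
FPKM of PVALB and the 8 calcium-release genes in each of the 6 pigs, 1 panel per gene with its own axis in FPKM, S-H pigs in red and S-L pigs in blue, with horizontal lines at the group means and bars of 1 SD (n = 3). PVALB and CASQ1 are the 2 panels in which every S-H pig lies below every S-L pig, and LW90 is the highest pig for 6 of the 8 calcium-release genes.

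PVALB was chosen for the size of its difference, so smaller differences in other genes are not a result in themselves. The log2 fold changes of the 8 calcium-release genes lay between -0.96 and 0.08. None of them passed the thresholds, where 1.25% of all tested genes did. An unadjusted p below 0.05 (limma) was seen in 1 of them, CASQ1, and in 7.45% of all tested genes. CASQ1 was also the only one without overlap between the groups, with every S-H pig below every S-L pig, which held for 2.06% of all tested genes. The log2 fold change was below 0 for 7 of the 8 genes, with a median of -0.28 over the list, and below 0 for 29.4% of all tested genes. All 8 lay below the median of all tested genes. Of the 15 measured genes of all muscle fibres, 10 had a log2 fold change below 0 (66.7%). Their median was -0.06, and 12 of the 15 lay below the median of all tested genes. With all values centred on these 15 genes, the median was -0.19 over the 8 calcium-release genes and 0.29 over all tested genes. The direction of 3 of the small differences depended on the scaling, since CACNA1S was at -0.12 with median-ratio size factors while SRL was at 0.038 and STAC3 at 0.11 in TPM. LW90 had the highest value for 6 of the 8 genes and LW119 the lowest for 4, and the 8 genes summed to 654.45 FPKM in LW90 against 303.33 FPKM in LW119. The total FPKM over all transcripts, after the rescaling given under processing, was also lowest in LW119, at 638536 against 797344 in LW90.

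Of the calcium-store proteins, CASQ1 had the largest difference of the 8 genes and SRL one of the smaller ones. CASQ1 (ENSSSCG00000006390, chromosome 4, 90276754 to 90288011) encodes calsequestrin 1, the main calcium-binding protein inside the reticulum of fast fibres. It had 112.3, 125.9 and 81.5 FPKM in LW63, LW70 and LW119 and 165.5, 170.5 and 299.8 FPKM in LW82, LW88 and LW90. The groups were separate, and LW90 stood far above the other S-L pigs. The means were 107 ± 22.8 FPKM for S-H and 212 ± 76.1 FPKM for S-L (SD, n = 3 each), so that S-H had 50.3% of the S-L mean. The log2 fold change was -0.96 (standard error 0.30, 95% interval from -1.65 to -0.27), and the adjusted p was 0.649 in limma, from an unadjusted 0.0116, just outside both thresholds. Without LW90 it was -0.68, and it stayed between -1.16 and -0.68 in the 19 other settings tried, of which quantile normalization was the only one in which CASQ1 passed, at an adjusted p of 0.605 (limma, with a range from 0.477 to 1.0 over the settings). Nearly the whole value came from the transcript CASQ1-201, which made up between 99.8% and 99.9% of it in each pig.

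SRL (ENSSSCG00000007949, chromosome 3, 38073562 to 38111932) encodes sarcalumenin, a second calcium-binding protein of the reticulum. Its values were 48.5, 63.1 and 30.2 FPKM in LW63, LW70 and LW119 and 41.1, 47.2 and 58.2 FPKM in LW82, LW88 and LW90. The S-H pigs enclosed the range of the S-L pigs, and the log2 fold change was -0.10 (95% interval from -0.78 to 0.59, limma). The shorter transcript SRL-202 made up 14.2% of SRL in LW119 and 7.6% in LW82, and at most 1.6% in the other 4 pigs.

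RYR1 encodes the ryanodine receptor of skeletal muscle, the channel through which the reticulum releases calcium, and in pigs it is known as the gene of porcine stress syndrome. No row of the table bore its name. An annotated gene without a symbol (ENSSSCG00000041601, chromosome 6, 47339768 to 47458459) covered the RefSeq position of RYR1 on the same assembly (47339759 to 47458457), and its value came almost wholly from 1 assembled transcript of that full span, TCONS_00228848. This match was made by position alone, without strand. The values were 4.70, 4.52 and 6.06 FPKM in LW63, LW70 and LW119 and 7.33, 5.44 and 10.1 FPKM in LW82, LW88 and LW90. LW119 and LW88 overlapped, and the other S-H pigs were below all S-L pigs. The log2 fold change was -0.54 (standard error 0.29, 95% interval from -1.20 to 0.11), with an adjusted p of 0.678 (limma).

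The voltage-sensor genes had log2 fold changes between -0.15 and 0.08, and the groups overlapped for each of them. CACNA1S (ENSSSCG00000024784, chromosome 10, 23502898 to 23568032) encodes the pore-forming subunit of the L-type channel. It had 21.7, 20.3 and 20.4 FPKM in LW63, LW70 and LW119, and 18.7, 14.3 and 28.4 FPKM in LW82, LW88 and LW90. The S-H pigs were almost alike, with an SD of log2(FPKM + 0.1) at percentile 1.78 of the tested genes, while the S-L pigs lay on both sides of them. The log2 fold change was 0.08 (95% interval from -0.55 to 0.71, limma).

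CACNB1 (ENSSSCG00000017510, chromosome 12, 23037810 to 23060491) encodes the beta subunit of that channel. Its values of 13.4, 16.1 and 14.5 FPKM in LW63, LW70 and LW119 overlapped with 14.2, 14.9 and 20.0 FPKM in LW82, LW88 and LW90. The log2 fold change was -0.15 (95% interval from -0.67 to 0.38, limma). STAC3 (ENSSSCG00000029471, chromosome 5, 22549008 to 22556194) encodes the adaptor that brings the channel to the triad and couples it to release. It had 124.4, 175.1 and 107.6 FPKM in LW63, LW70 and LW119, and 122.6, 126.0 and 159.0 FPKM in LW82, LW88 and LW90. LW70 and LW90 were the high pigs of their groups, and the log2 fold change was -0.02 (95% interval from -0.61 to 0.56, limma). For these genes and SRL, all 4 intervals lay within a log2 change of 1 in either direction.

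The 2 genes of triad architecture were lower on average in S-H, with overlap. JPH1 (ENSSSCG00000006174, chromosome 4, 61628299 to 61716546) encodes junctophilin 1, which ties the transverse tubule to the reticulum. It had 30.5, 28.6 and 27.4 FPKM in LW63, LW70 and LW119 and 42.6, 29.4 and 45.3 FPKM in LW82, LW88 and LW90, so that LW88 lay among the S-H pigs. The log2 fold change was -0.42 (95% interval from -0.96 to 0.12) with an adjusted p of 0.689 (limma). TRDN (ENSSSCG00000027613, chromosome 1, 39180816 to 39567314) encodes triadin, which anchors calsequestrin to the ryanodine receptor. It had 20.6, 15.5 and 15.7 FPKM in LW63, LW70 and LW119 and 27.5, 15.5 and 33.7 FPKM in LW82, LW88 and LW90. LW88 again lay with the S-H pigs, and the log2 fold change was -0.50 (95% interval from -1.21 to 0.20) with an adjusted p of 0.711 (limma). Without LW90 the log2 fold change was -0.27 for TRDN, -0.30 for JPH1 and -0.32 for RYR1, and without LW88 it was -0.82, -0.61 and -0.76.

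**Figure D2:**
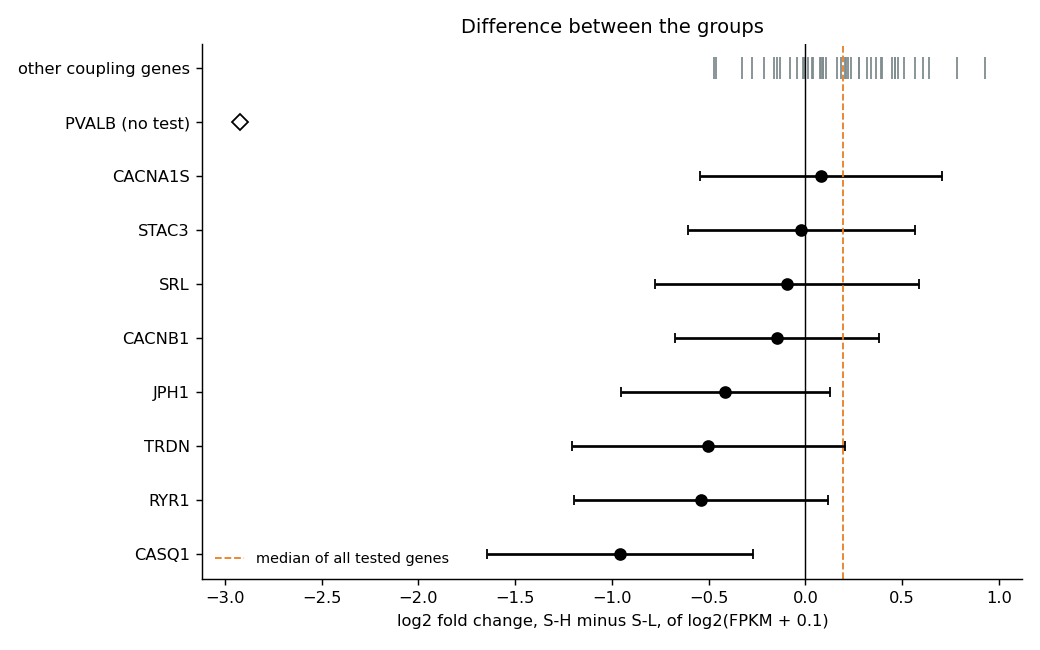
Log2 fold change of S-H minus S-L on the log2(FPKM + 0.1) scale for the 8 calcium-release genes, with 95% intervals from limma, for PVALB as an open diamond without a test, and for 43 other coupling genes as grey ticks, with a dashed line at the median of all tested genes (0.19). The interval of CASQ1 is the only one that leaves out 0. PVALB, which was chosen for its difference, lies at -2.92, to the left of every other gene shown.

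FPKM is given per length of transcript, so the levels of the genes can be set beside each other. Over the 6 pigs the order of mean FPKM was CASQ1 (159.3), STAC3 (135.8), SRL (48.0), JPH1 (34.0), TRDN (21.4), CACNA1S (20.6), CACNB1 (15.5), PVALB (8.27) and RYR1 (6.36). STAC3 and SRL were the only neighbours whose ranges over the pigs did not overlap. JPH1 was above TRDN in all 6 pigs although their ranges overlapped. CASQ1 and STAC3, and likewise TRDN and CACNA1S, were each in one order in 3 pigs and in the opposite order in 3. PVALB was above RYR1 in 4 pigs and below it in LW70 and LW119. PVALB amounted to 6.17%, 0.213% and 2.52% of the CASQ1 level in LW63, LW70 and LW119, and to 9.55%, 7.58% and 3.89% in LW82, LW88 and LW90. On this scale the groups overlapped, because LW90 had the most CASQ1 and the least PVALB of its group.

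At the transcript level the 8 calcium-release genes had 29 transcripts in the table, of which 22 had a mean of at least 0.1 FPKM and were tested. One of them passed, against 503 of 40336 tested transcripts (1.25%). It was CACNA1S-204 (chromosome 10, 23503560 to 23567946), with 7.08, 8.09 and 5.47 FPKM in LW63, LW70 and LW119, and it was listed at 0 in all 3 S-L pigs. Its adjusted p was 0.00810 (limma over all transcripts), and 34 transcripts (0.0843%) had an adjusted p below 0.05. The S-L group had no spread, since all its values were 0, and the p rests on the 3 S-H values against that floor. The adjusted p lay between 0.00419 and 0.0771 over 18 fits and was below 0.05 in 14 of them (limma).

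CACNA1S-203 (23503560 to 23568032), which has the same start coordinate, showed the opposite picture. It was listed at 0 in all 3 S-H pigs and had 6.42 FPKM in LW82, 0.0449 FPKM in LW88 and 9.32 FPKM in LW90. It did not pass, with an adjusted p of 0.848 in limma, from an unadjusted 0.0262. Its call depended on LW88, since it passed without that pig at an adjusted p of 0.0690 (limma), and it also passed with a pseudocount of 0.01 at an adjusted p of 0.819, while the adjusted p in the other alternatives was between 0.757 and 0.943. In LW88, where it was almost absent, CACNA1S-201 had 3.39 FPKM, the most of any pig. A transcript above 0 in all 3 pigs of one group and listed at 0 in all 3 of the other was seen in 2 of these 22 tested transcripts, and in 251 of all 40336 (0.622%).

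The opposite patterns of these transcripts did not show in the gene's summed level, for which the groups overlapped. CACNA1S-204 made up 32.6%, 39.9% and 26.8% of CACNA1S in the S-H pigs, and CACNA1S-203 made up 34.4%, 0.313% and 32.8% in the S-L pigs. Summed with CACNA1S-201, they came to 7.08, 8.09 and 6.54 FPKM in S-H and 6.42, 3.44 and 9.91 FPKM in S-L, and the groups overlapped. The main transcript in every pig was CACNA1S-206, with between 9.59 and 17.9 FPKM. These transcripts overlap over nearly their whole length, and the values depend on how reads shared between them were divided, which was not tested here.

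TRDN was also split over several transcripts. The assembled transcript TCONS_00002474 had 0.102 FPKM in LW70 and 0.0241 FPKM in LW119 but 4.02 FPKM in LW63, and 4.85, 1.72 and 7.03 FPKM in LW82, LW88 and LW90. LW63 was therefore within the range of the S-L pigs, and, as for PVALB, it was the highest of the S-H pigs. The unadjusted p was 0.0556 (limma). For TCONS_00002475 the groups were separate, with 0.636 to 3.24 FPKM in S-H and 3.82 to 6.64 FPKM in S-L. It did not pass, with an adjusted p of 0.848 in limma, from an unadjusted 0.0263. The TRDN transcript with the highest mean, TCONS_00002473, had 6.098, 7.75 and 9.75 FPKM in LW63, LW70 and LW119. LW63 was thus its lowest S-H pig, and LW82, LW88 and LW90 had 11.6, 4.87 and 13.3 FPKM. The annotated TRDN-202 held between 3.67 and 6.74 FPKM in all 6 pigs. In CACNB1, 2 of the 6 transcripts were listed at 0 in every pig, and CACNB1-205 and CACNB1-206 together made up nearly all of the gene.

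**Figure D3:**
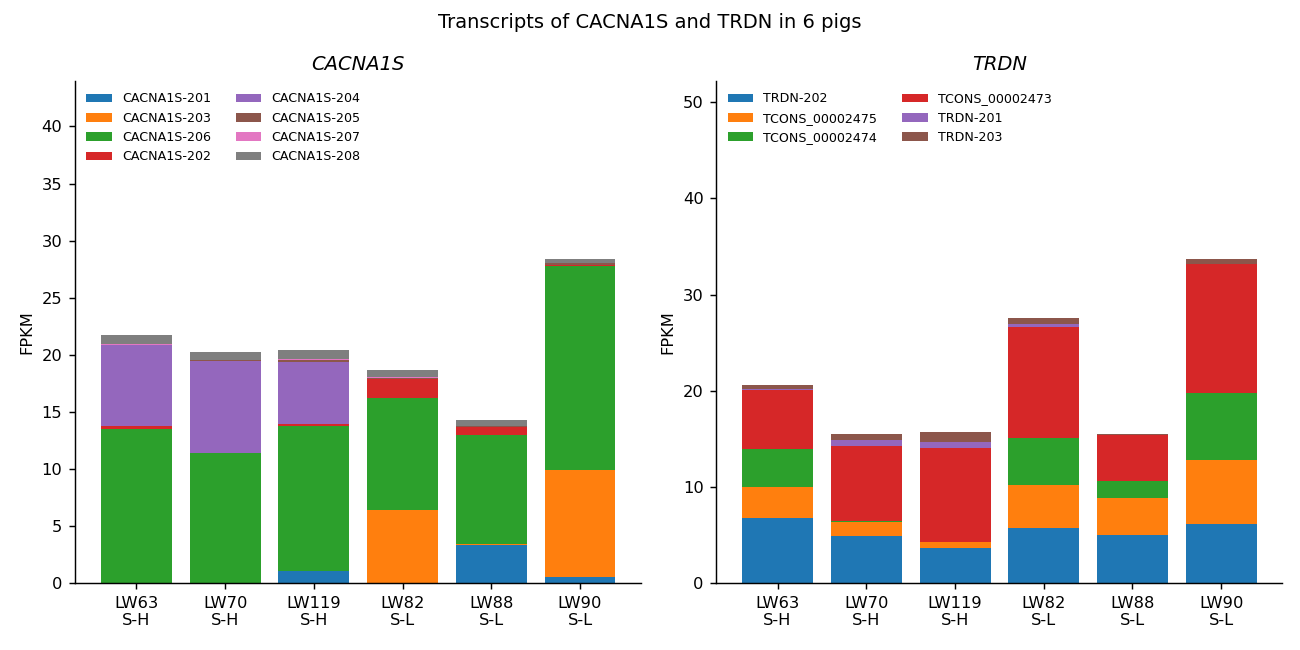
Stacked FPKM of the 8 transcripts of CACNA1S (left) and the 6 transcripts of TRDN (right) in each pig, S-H pigs first, with each colour a transcript and the bar height the gene's FPKM. CACNA1S-204 appears in the 3 S-H pigs only and CACNA1S-203 in the S-L pigs only, while the bar heights of the groups overlap.

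The wider machinery of excitation-contraction coupling was described with 47 further genes, of which 45 were matched and 43 tested. CALM2 and SPEG were not analysed here, and STAC2 and JPH3 were below the minimum level. None of the 43 passed the thresholds (1.25% of all tested genes did), and S100A1 was the only one with an unadjusted p below 0.05, against 7.45% of all genes. The median log2 fold change was 0.19, the same as that of all tested genes. Those with the largest positive values were CASQ2, S100A1 and FKBP1B. CASQ2, the calsequestrin of slow and cardiac muscle, had 1.27, 1.41 and 3.14 FPKM in LW63, LW70 and LW119 and 0.743, 1.73 and 0.532 FPKM in LW82, LW88 and LW90. The groups overlapped through LW88, and the log2 fold change of 0.93 (95% interval from -0.16 to 2.02, limma) was opposite in sign to that of CASQ1.

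S100A1, a calcium-binding protein that modulates the ryanodine receptor, had an S-H mean of 168 ± 24.7 FPKM against an S-L mean of 98.6 ± 24.6 FPKM (SD, n = 3 each). The S-H pigs were all above the S-L pigs, as in 11.9% of all tested genes, and limma gave a log2 fold change of 0.78 (95% interval from 0.19 to 1.38) at an adjusted p of 0.649, from an unadjusted 0.0151. With its most abundant transcript in place of the sum, the log2 fold change was 1.93 at an adjusted p of 0.743 (limma), and over all alternatives the adjusted p was between 0.477 and 0.9999. FKBP1B, which binds and steadies the release channel, was at 0.64 (95% interval from -0.12 to 1.40, limma). The largest negative values were those of CAMK2A at -0.47, CACNG1 at -0.46 and CAMK2B at -0.33. CACNG1 encodes the gamma subunit of the muscle channel, and the others are calmodulin-dependent kinases. In CAMK2B alone of these 3, every S-H pig was below every S-L pig, at 2.69 ± 0.104 against 3.43 ± 0.476 FPKM (SD, n = 3 each), and limma gave an unadjusted p of 0.221.

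Parvalbumin works beside the pumps that return calcium to the reticulum, and none of the 5 matched genes of this group passed or had an unadjusted p below 0.05 (limma). PLN was not analysed here. ATP2A1, the pump of fast fibres, had 222.7, 344.6 and 310.9 FPKM in LW63, LW70 and LW119 and 306.4, 347.9 and 702.9 FPKM in LW82, LW88 and LW90, and the log2 fold change was -0.55 (95% interval from -1.35 to 0.25, limma). As for CASQ1, LW90 stood above the rest. ATP2A2, the pump of slow fibres, was at 0.74 (95% interval from -0.49 to 1.98), with LW88 lowest at 37.7 FPKM. ATP2A3, SLN and MRLN had log2 fold changes of 0.22, -0.23 and 0.02 (limma). Of the other cytosolic calcium buffers, CALB1 was listed at 0 in all 6 pigs and CALB2 did not exceed 0.0469 FPKM, while OCM was not analysed here, so PVALB was the only measured buffer of this kind with a level that could be compared.

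Because parvalbumin is a protein of fast fibres, the markers of fibre type and of other cells were set beside it. The 7 measured fast-fibre genes of a list of 10 all had a log2 fold change below 0 (29.4% of all tested genes did), and none passed. ACTN3 alone had an unadjusted p below 0.05 (limma), against 7.45% of all tested genes. It alone had every S-H pig below every S-L pig, against 2.06% of all tested genes. The 7 genes summed to between 13685 and 20060 FPKM in S-H and between 16263 and 33062 FPKM in S-L. The 4 with the highest levels, MYLPF, TNNC2, TNNT3 and MYL1, had log2 fold changes between -0.53 and -0.45. Over all 7 genes the log2 fold change ran from -2.76 for TNNI2 to -0.14 for MYBPC2. TNNI2 had 47.7, 53.5 and 720.4 FPKM in LW63, LW70 and LW119. In LW82, LW88 and LW90 it had 30.6, 4209.5 and 4451.5 FPKM. The groups overlapped in TNNI2 because LW82 was the lowest of all pigs, and the unadjusted p was 0.161 (limma). The myosin heavy chain genes MYH1, MYH2 and MYH4 were not analysed here. LW82 had the most PVALB of all pigs and the lowest fast-fibre sum of the S-L group, below LW63 and LW70. Its levels of MYLPF, TNNC2, TNNT3, TNNI2 and MYBPC2 were each below those of LW63 and LW70. Its MYL1 level of 2580 FPKM and its ACTN3 level of 163.4 FPKM were above those of every S-H pig. The 9 slow-fibre genes summed to between 9579.7 and 11398 FPKM in S-H and between 6455.2 and 9816.1 FPKM in S-L. Of these 9 genes, 8 had a log2 fold change above 0 (11533 of the 16333 tested genes did), none passed, and 2 (TPM3 and MYOZ2) had an unadjusted p below 0.05 (limma). Although the sums overlapped, 5 of the 9 genes taken singly were higher in S-H without overlap between the groups, against 11.9% of all tested genes. The most abundant were TNNC1 at 0.51, MYL2 at 0.38, MYL3 at 0.14 and TPM3 at 0.74.

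Of the cell types other than muscle, the adipocyte genes moved with the groups. Of the 7 measured genes of a list of 8, 5 passed, all higher in S-H, as did 152 of all 16333 tested genes. The sums were between 444.4 and 1293.5 FPKM in S-H and between 254.58 and 376.15 FPKM in S-L. None of the 7 was at 0 in any pig, CIDEA was not analysed here, and the most abundant were FABP4 (log2 fold change 1.33), ADIPOQ (1.90), PLIN4 (0.56) and PLIN1 (2.04). The part of fibre type and of fat cells in the PVALB and CASQ1 differences was not tested. LW63 had the highest adipocyte sum and also the most PVALB of the S-H pigs. With all values centred on the 15 general muscle genes of each pig, the log2 fold change was -2.83 for PVALB and -0.87 for CASQ1. Fibroblast, endothelial and macrophage genes overlapped between the groups in their summed levels, and no gene of these lists passed, had an unadjusted p below 0.05 (limma) or was at 0. The 5 fibroblast genes, led by DCN, COL3A1, LUM and COL1A1, summed to between 304.9 and 630.45 FPKM in S-H and 329.7 and 514.95 FPKM in S-L. The endothelial genes PECAM1, CDH5, VWF and KDR summed to between 70.9 and 101 FPKM and between 55.6 and 83.7 FPKM, and the macrophage genes CD163, MRC1, CSF1R and CD68 to between 9.95 and 42.5 FPKM and between 17.3 and 19.7 FPKM. Taken singly, PECAM1 alone of these lists separated the groups. It was higher in S-H (log2 fold change 0.48), and 11.9% of all tested genes were higher in S-H without overlap. Of the Schwann cell genes reported here, MBP had 11.3, 3.82 and 8.09 FPKM in LW63, LW70 and LW119 and 9.58, 8.75 and 7.005 FPKM in LW82, LW88 and LW90, and SOX10 had 0.510, 0.0367 and 0.104 FPKM and 0.686, 0.124 and 0.131 FPKM. Within S-H both were highest in LW63 and lowest in LW70, as PVALB was, the groups overlapped, and neither passed, with log2 fold changes of -0.24 and -0.42 (limma). Their part in the PVALB values was not tested.

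**Figure D4:**
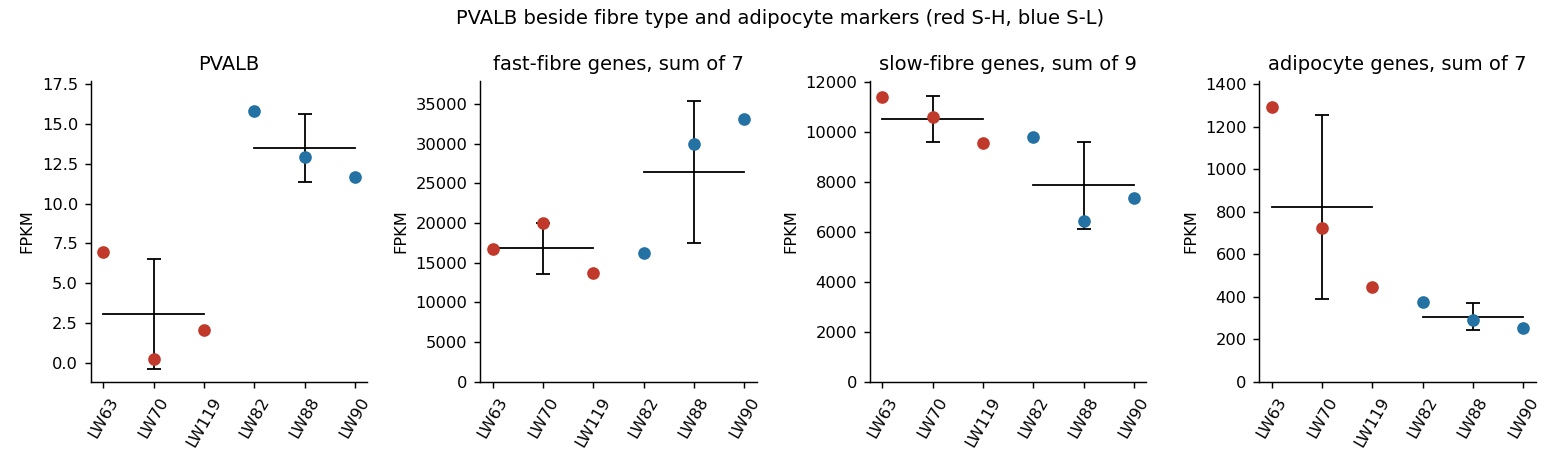
FPKM of PVALB and summed FPKM of the measured fast-fibre, slow-fibre and adipocyte marker genes in each pig, each panel with its own axis, with lines at the group means and bars of 1 SD (n = 3). PVALB and the adipocyte sum separate the groups in opposite directions, whereas the fast-fibre and slow-fibre sums of the groups overlap. Taken singly, 5 of the 9 slow-fibre genes (higher in S-H) and 1 of the 7 fast-fibre genes (lower in S-H) separate the groups.

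The genes most like PVALB were sought by Pearson r of log2(FPKM + 0.1) over the same 6 pigs among 10134 named genes with a mean of at least 1 FPKM. These r values are descriptive, since the 6 points fall into the 2 groups for which PVALB was chosen. The highest were those of ATP6V0C (0.993), RPS6KB1 (0.984), CLIP1 (0.978), RETREG1 (0.976) and COPS3 (0.973). RETREG1, a receptor for the breakdown of endoplasmic reticulum, had the widest range of them. It had 279.9, 58.7 and 144.4 FPKM in LW63, LW70 and LW119 and 358.7, 553.5 and 439.1 FPKM in LW82, LW88 and LW90, so LW70 was lowest and LW63 the highest S-H pig, as for PVALB. The lowest r values were those of EMC9 (-0.990), TMCO6 (-0.989), AIDA (-0.980), CYP2E1 (-0.979) and METTL23 (-0.977). Among the calcium-release genes r was 0.603 for JPH1, 0.595 for TRDN, 0.557 for RYR1 and 0.524 for CASQ1, at percentile 92.7, 92.4, 90.8 and 89.4 of all compared genes. For the other calcium-release genes it lay between -0.417 (STAC3) and -0.0046 (CACNB1).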

How the data were processed

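Strand-specific, rRNA-depleted libraries of LD muscle from 3 S-H and 3 S-L pigs were sequenced by the authors, and reads were aligned with Hisat2 to Sscrofa11.1 and transcripts assembled and quantified with StringTie (versions not given in the sources used here). The deposited values are FPKM per transcript, computed by the authors. As deposited, 21104 rows (Ensembl transcripts lacking a symbol) were taken to hold TPM instead. These were multiplied by 1 factor per pig, from 0.639 to 0.847, computed on that assumption from the sums of the table. No check of these factors against other values is shown here. The authors' read totals per library were not used.

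FPKM was summed per gene. Names came from the table, from a table of gene IDs (811 genes) or from a reciprocal overlap of at least 50% with RefSeq genes of Sscrofa11.1 (696 genes), and 115 of 125 list entries were matched. S-H and S-L were compared in R 4.3.3 by limma 3.58.1, letting the variance follow the mean level, and p was adjusted by Benjamini-Hochberg. Genes and transcripts were fitted separately, and the fit was tested on simulated data. The other steps used Python 3.11.15 with pandas 2.3.3. The authors' own tests used edgeR. The pigs are separate animals.

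The genes described and all lists were chosen with earlier results of these data known. Named genes were the 9 described, the 3 largest positive and 3 largest negative log2 fold changes among the other coupling genes and any that passed, the pump and buffer genes, up to 4 most abundant genes per marker list, and the 5 genes of highest and lowest r with PVALB. The alternatives were other pseudocounts, filters, scalings and variance models, genes with a symbol only, the top transcript per gene, values as deposited and each pig left out. Part of 1 marker list is not reported here. ACTN3, TNNI2, MYBPC2 and MYOZ2 were named after their values were seen.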

Additional observations from a re-analysis of the deposited data

How the results depend on the processing

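No paired analysis was possible because no label ties an S-H pig to an S-L pig. With 3 pigs per group, 1 pig can decide a value, and FPKM without counts gives no counting error. No calcium-release gene and no other coupling gene passed in any fit with a pig left out (0 in each), and of the other settings quantile normalization alone gave 1 passing calcium-release gene, CASQ1. For PVALB the log2 fold change stayed between -3.92 and -1.79 with each pig left out (-1.79 without LW70), and between -3.13 and -2.20 in the other settings. Over all genes, 81 passed with a pseudocount of 1, 118 with a mean of at least 1 FPKM, and between 132 (without LW90) and 296 with each pig left out, with 134 without LW63. Of the transcripts of the calcium-release genes, 2 passed with a pseudocount of 0.01 or with quantile normalization, and between 1 and 3 with each pig left out, CACNA1S-203 among them without LW88 and with the pseudocount of 0.01. With the minimum of 1 FPKM, 11095 genes were tested in place of 16333, and the cause of the lower count of passing genes was not tested. Signs turned only in log2 fold changes near 0. CACNA1S was at -0.12 with median-ratio size factors and -0.069 with quantile normalization, and between -0.15 (without LW88) and 0.34 with each pig left out. SRL was at 0.038 in TPM and between -0.33 and 0.19 with each pig left out, above 0 without LW119 or LW90. STAC3 was at 0.11 in TPM and 0.070 when centred on general muscle genes, and between -0.22 and 0.13 with each pig left out, above 0 without LW63, LW119 or LW90. CACNB1 was between -0.24 and 0.0069 with each pig left out, above 0 without LW90.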
